A study of Homo sapiens with 6 samples.

Results

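A total of 67 rows of the count tables, with 6 more set aside by name, were at least 1.5-fold higher, and above a minimum level, in every library of SW480 cells overexpressing POU5F1B than in any library of SW480 cells expressing green fluorescent protein (GFP). SW480 is an established line from a human colorectal adenocarcinoma, and POU5F1B is a gene that arose by retrotransposition of POU5F1, the gene of the pluripotency factor OCT4. POU proteins of this kind are homeodomain factors that bind DNA at an octamer and related sites. The study reported POU5F1B itself as mainly cytoplasmic and enriched in membranes of SW480 cells. Its chromatin immunoprecipitation did not detect significant recruitment of POU5F1B to the genome. SW480 cells are epithelial tumour cells that carry keratins and the adhesion molecule EPCAM. Both groups were transduced, carried their insert behind a doxycycline-inducible promoter and were harvested after 72 h in 1 µg/mL doxycycline, and poly(A) RNA of 3 libraries per group was sequenced. The comparison asked which transcripts differ when POU5F1B is overexpressed in this line. The labels do not say whether the 3 libraries of a group came from separate cultures or transductions, so the spread between them may be technical.

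The members were chosen by their values in these same 6 libraries. Counts were scaled to the library total as CPM, the count per 1000000 counts, and a row became a member when its lowest POU5F1B CPM was at least 1.5 times its highest GFP CPM and was itself 3 or more. Of 11385 rows with at least 3 CPM in every POU5F1B library, 73 met both limits (0.641%), and POU5F1B, EPAS1, EDN3, TM4SF5, TGFBI and ATF3 were then left out, which left 67 of the 63677 rows. POU5F1 was also to be left out but did not reach 3 CPM in every POU5F1B library. The mirror of the rule, lower in every POU5F1B library, was met by 71 of 11221 rows (0.633%). Every value of the POU5F1B against GFP contrast given for the members is therefore a description, and no test of that contrast bears on them.

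The libraries held between 10767947 and 12787637 counts, and 3 counts corresponded to between 0.235 and 0.279 CPM. POU5F1B itself, outside the list, stood at 0.506, 0.391 and 0.0808 CPM in GFP replicates 1, 2 and 3 and at 1190, 1058 and 124 CPM in POU5F1B replicates 1, 2 and 3. POU5F1B replicate 3 thus carried 9.03-fold less POU5F1B transcript than the mean of the other two. GFP replicate 3 stood apart as well. Of the 11379 rows at 3 CPM or more in every POU5F1B library, 15.2% lay at least 2-fold above or below both other GFP libraries. The share was 0.404% for GFP replicate 1, 0.0615% for GFP replicate 2 and, within its own group, 1.89% for POU5F1B replicate 3. The limit was set on the POU5F1B libraries alone, so the shares of the 2 groups are not fully alike. It also defines the rows at 3 CPM or more named below. EPCAM was at 86.8, 91.8 and 482 CPM in the GFP libraries and at 322, 331 and 259 CPM in the POU5F1B libraries. The keratins KRT8 and KRT18 were at 2994 CPM or more in every library, and KRT20, a marker of differentiated enterocytes, at no more than 1.49 CPM. Of the other epithelial markers, KRT19 was at 343, 307 and 551 CPM in GFP and 575, 494 and 447 CPM in POU5F1B libraries. VIL1 was at 23.1, 14.4 and 196 CPM in GFP and 43, 37.7 and 114 CPM in POU5F1B libraries. CDX2 was at 27.7, 20 and 30.8 CPM in GFP and 16.5, 14.7 and 38 CPM in POU5F1B libraries. The 41 fibroblast, endothelial and immune markers summed to between 48.1 and 237 CPM in GFP and between 50.8 and 68.7 CPM in POU5F1B libraries. COL1A1 was the highest of them in every GFP library, at 142, 121 and 15.7 CPM, against 6.81, 5.57 and 9.73 CPM in POU5F1B libraries. ACTA2 was the highest in every POU5F1B library, at 16.4, 15.2 and 16.9 CPM, against 18.6, 18.1 and 7.03 CPM in GFP libraries. Of the 41 markers, 21, among them the pan-leukocyte gene PTPRC, had no more than 3 counts in any library. The median row at 3 CPM or more differed between same-numbered libraries by 0.04, 0.00 and 0.14 on the log2 scale, which is the shift against which the values below stand. Where 2 sets of values follow each other below, the GFP libraries come first and the POU5F1B libraries second, each in the order of replicates 1, 2 and 3.

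Most members were modest in level and in difference. The ratio of the mean CPM of the 3 POU5F1B libraries to the mean of the 3 GFP libraries ranged from 1.59 to 26.6 with a median of 2.29, and 52 of the 67 were at 2-fold or more. The ratio the rule used, lowest POU5F1B over highest GFP CPM, had a median of 1.68. Mean CPM over all 6 libraries had a median of 8.92 in the members and 35.8 in all 11379 rows, and 47.8% of the members against 19.9% of those rows had a lowest POU5F1B CPM under 10. By annotation 60 members were protein-coding, 3 were long noncoding RNAs, 1 a processed pseudogene and 1 a mitochondrial tRNA, while ENSG00000152268 and ENSG00000132130 had neither a symbol nor a position in the tables used here.

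Just inside the fold limit were CHAF1B with a ratio of 1.5002, KCNS3 with 1.501 and CDS1 with 1.501, and just outside were CDH1 with 1.49, HES2 with 1.49 and TRABD2A with 1.49. CDH1 encodes E-cadherin, and its CPM was 33.7, 31 and 67.5 in GFP and 165, 159 and 101 in POU5F1B libraries, so that the highest GFP and the lowest POU5F1B value were both those of replicate 3. TRABD2A is a paralog of the member TRABD2B. Just inside the CPM limit were CCDC74A, SLPI and IL24, whose lowest POU5F1B values were 3.24, 3.32 and 3.33 CPM, and just outside were PPM1J with 2.82, SLC15A1 with 2.79 and CBR3-AS1 with 2.48.

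**Figure D1:**
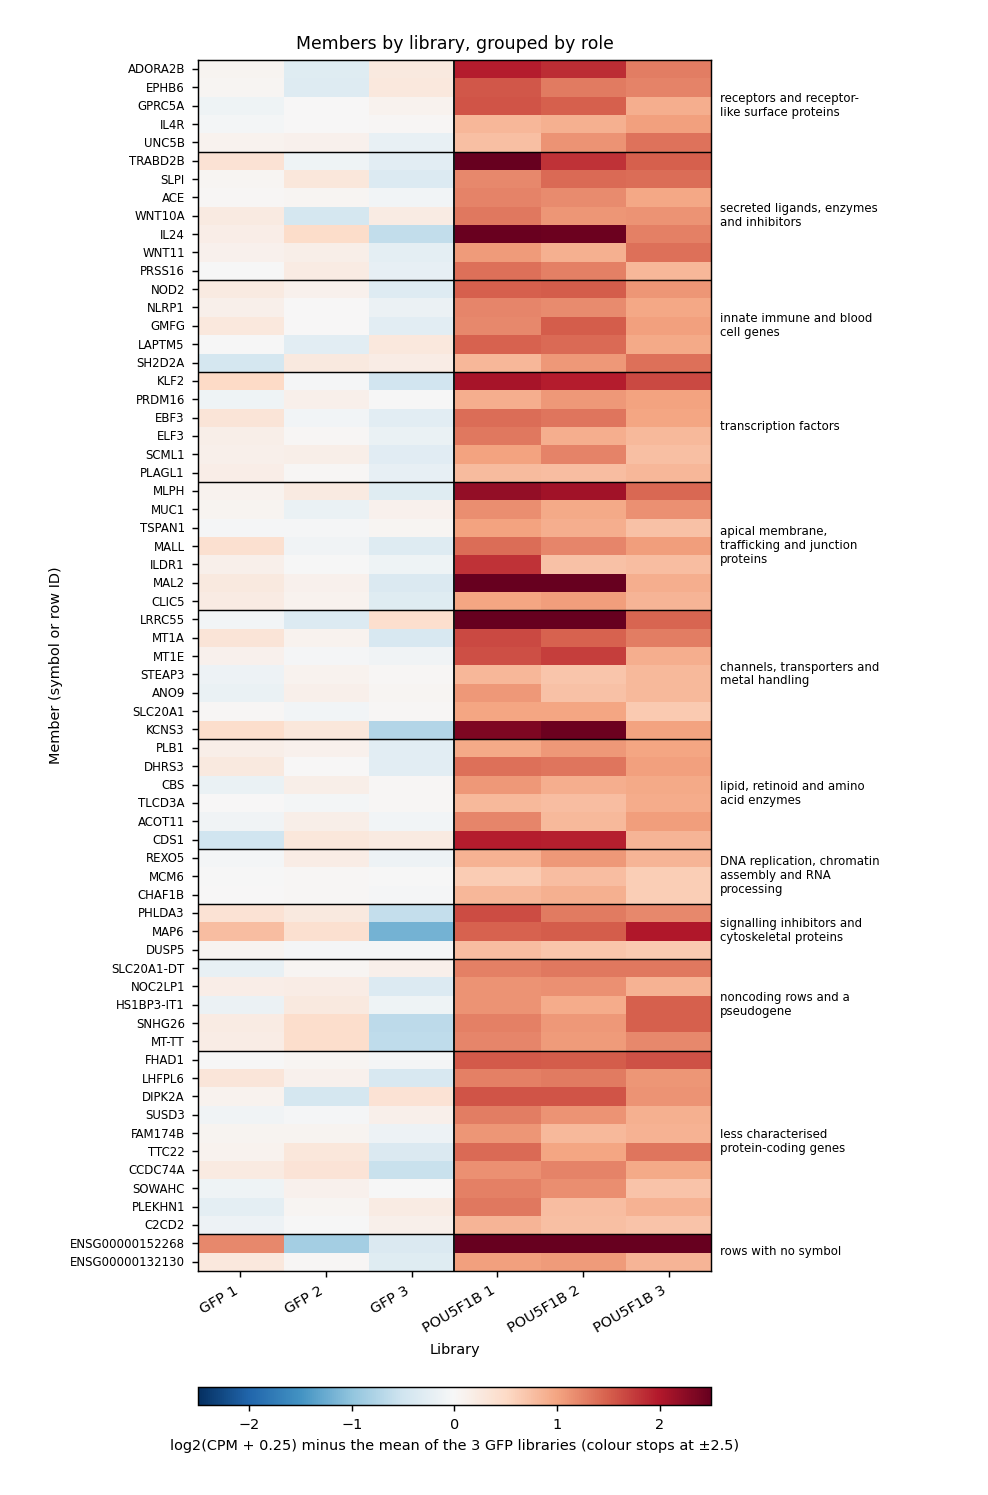
Each row is one of 66 members and each column a library, grouped by role, and the colour gives log2(CPM + 0.25) minus the mean of the 3 GFP libraries. All POU5F1B columns are above the GFP columns, as the rule requires, and by CPM the third POU5F1B library is the lowest of its group in 41 of 66 rows. The colour scale stops at a limit, so the order of the libraries is not visible in every row.

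Promoter sequence was one property that the rule did not use. POU proteins bind an octamer, written here as ATTTGCAT, though the study found no significant genomic recruitment of POU5F1B itself. The 250 bases before the start site were available from RefSeq (GRCh38.p14) for 44 of the 67 members. Only ELF3, an epithelial ETS factor, and IL4R, the alpha chain of the interleukin 4 and interleukin 13 receptors, held the octamer on either strand (4.55% of 44), compared with 1.12% of 8935 promoters of rows at 3 CPM or more and 1.66% of all 27305 promoters. In the sequences of ELF3 (chr1:202010337-202010586, plus strand) and IL4R (chr16:27313724-27313973, plus strand) the capitals mark the octamer, read here on its opposite strand.
ELF3: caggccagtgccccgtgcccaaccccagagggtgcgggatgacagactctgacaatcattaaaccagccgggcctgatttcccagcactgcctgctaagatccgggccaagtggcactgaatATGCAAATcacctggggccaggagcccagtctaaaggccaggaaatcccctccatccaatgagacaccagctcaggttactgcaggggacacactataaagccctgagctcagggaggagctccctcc
IL4R: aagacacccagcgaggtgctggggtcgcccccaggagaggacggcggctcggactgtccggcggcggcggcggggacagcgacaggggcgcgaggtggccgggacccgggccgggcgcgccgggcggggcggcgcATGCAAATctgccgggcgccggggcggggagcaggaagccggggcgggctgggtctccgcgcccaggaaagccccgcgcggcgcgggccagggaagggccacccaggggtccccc
The next pair is shown because MCM6 and SLC20A1 had the highest CPM among the members. In MCM6 (chr2:135876444-135876693, minus strand) the capitals mark TTTNNCGC on either strand, the type of site that E2F factors bind at replication genes, with 4 overlapping matches in 2 blocks. In SLC20A1 (chr2:112645689-112645938, plus strand) they mark ACGTG on either strand, which lies within the E-box CACGTG and within hypoxia response elements.
MCM6: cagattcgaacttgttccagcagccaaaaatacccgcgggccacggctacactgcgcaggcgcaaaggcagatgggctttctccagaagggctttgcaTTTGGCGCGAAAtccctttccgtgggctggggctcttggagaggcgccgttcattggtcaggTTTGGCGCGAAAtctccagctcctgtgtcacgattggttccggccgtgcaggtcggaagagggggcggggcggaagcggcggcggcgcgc
SLC20A1: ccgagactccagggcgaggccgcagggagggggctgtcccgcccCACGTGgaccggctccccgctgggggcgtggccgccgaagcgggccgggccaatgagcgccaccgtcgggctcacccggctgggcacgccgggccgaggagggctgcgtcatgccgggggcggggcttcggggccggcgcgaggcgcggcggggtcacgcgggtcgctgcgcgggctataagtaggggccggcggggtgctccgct
TTTNNCGC was present in 6.82% of the members' promoters (MCM6, TTC22 and CDS1), 9.31% of those at 3 CPM or more and 5.93% of all. ACGTG was present in 22.7%, 24.1% and 18.7% in the same order, TATAAA in 6.82%, 4.73% and 11.1%, CCAAT in 25%, 35.2% and 33.0%, GGGCGG in 75%, 70.3% and 42.3%, and CACCC in 65.9%, 58.1% and 53.7%. The forms of the metal response element, TGCGCNC and TGCACNC, were in 18.2% and 6.82% of the members' promoters, 27.7% and 9.12% at 3 CPM or more, and 16.9% and 9.73% of all. TGACTCA, the AP-1 site, was in 1 member, PLB1 (2.27%, 2.35% and 4.16%). Median GC content was 65.6% both in the members' promoters and in those of rows at 3 CPM or more. All motifs were searched on both strands, and a match is a run of letters and not a site shown to be bound.

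The 5 receptors and receptor-like proteins of the list were between 1.90-fold and 3.33-fold higher by group means. Such proteins pass signals from adenosine, cell-bound ephrins, netrins and cytokines across the plasma membrane. ADORA2B, the low-affinity adenosine receptor that couples to cyclic AMP, was at 9.7, 7.43 and 11.1 CPM in GFP replicates 1, 2 and 3 and at 37, 33.9 and 23 CPM in POU5F1B replicates 1, 2 and 3, a log2 difference of 1.69 ± 0.29 (voom, SE, n = 3 per group here and for the other values given with ±). GPRC5A, an orphan receptor inducible by retinoic acid, was at 100.2, 109 and 116 CPM and 324, 306 and 204 CPM, or 2.56-fold by means. In both, POU5F1B replicate 3 was the lowest of its group and GFP replicate 3 the highest of its group, so the gap between groups was narrowest there. EPHB6, an Eph receptor without kinase activity, was at 27.7, 21.1 and 32.2 CPM in GFP and 79, 65.9 and 63.3 CPM in POU5F1B libraries. UNC5B, a netrin receptor, was at 3.12, 3.13 and 2.5 CPM and 5.07, 6.59 and 7.86 CPM. IL4R was at 13.1, 13.7 and 13.9 CPM and 24.4, 25.2 and 27.8 CPM. UNC5B and IL4R were highest in POU5F1B replicate 3.

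Secreted ligands, enzymes and inhibitors, with the membrane-bound enzyme TRABD2B among them, formed a group of 7, between 2.28-fold and 4.87-fold higher by means. TRABD2B, a membrane-bound metalloprotease that inactivates Wnt ligands by cleaving their amino terminus, was at 2.36, 1.64 and 1.45 CPM in GFP and 11.2, 6.87 and 5.46 CPM in POU5F1B libraries. Its relative TRABD2A, just outside the limit, was at 6.49, 5.87 and 5.74 CPM and 11.3, 9.66 and 10.4 CPM. The Wnt ligand WNT10A was at 2.61, 1.56 and 2.59 CPM in GFP and 5.86, 5.01 and 5.12 CPM in POU5F1B libraries. WNT11, a ligand known from noncanonical Wnt signalling, was at 2.45, 2.5 and 1.86 CPM and 4.99, 4.36 and 6.23 CPM, and was highest in POU5F1B replicate 3. Other Wnt ligands, looked up after the values of the members were seen, had differences in both directions. None had an adjusted p under 0.05 in voom, but neither did any other tested gene, the smallest adjusted p being 0.122. WNT5A was at 373, 339 and 115 CPM in GFP and 78.6, 82.1 and 96.3 CPM in POU5F1B libraries and WNT6 at 41.1, 37.5 and 11.1 CPM and 13.9, 9.66 and 12.7 CPM, with log2 differences of -1.56 ± 0.42 and -1.15 ± 0.52. Those of WNT16 and WNT5B were -2.12 ± 0.84 and -0.76 ± 0.55, and those of WNT3, WNT9A, WNT10B and WNT7B were 0.64 ± 0.19, 0.97 ± 0.41, 0.69 ± 0.33 and 0.26 ± 0.46, while WNT2B and WNT4 stayed under 1 CPM. IL24, a cytokine of the interleukin 10 family, was at 1.43, 1.8 and 0.727 CPM and 8.07, 7.89 and 3.33 CPM, with POU5F1B replicate 3 2.4-fold below the mean of replicates 1 and 2. The FCMR gene overlaps IL24 on the opposite strand and stood at 4.13, 5.63 and 3.64 CPM in GFP and 7.6, 7.62 and 4.7 CPM in POU5F1B libraries. The strand setting of the counting is not stated, so it is not known how reads within the overlap of the pair were counted. SLPI, an inhibitor of leukocyte proteases made by mucosal epithelia, was at 1.35, 1.64 and 0.97 CPM and 3.32, 3.9 and 3.84 CPM and had the shortest exon length of these genes, at 596 bases. ACE, which converts angiotensin I, was at 3.2, 3.28 and 2.99 CPM and 7.76, 7.43 and 6.4 CPM, and PRSS16, a serine protease known from the thymus, at 5.06, 5.87 and 4.36 CPM and 13.6, 12.4 and 9.22 CPM.

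Among 5 genes best known from innate immunity or blood cells, the means differed by 2.21-fold to 2.62-fold. NOD2, the cytosolic sensor of a bacterial cell wall peptide whose variants are linked to Crohn disease, was at 9.44, 8.68 and 6.38 CPM in GFP and 23.1, 23.5 and 17.6 CPM in POU5F1B libraries. NLRP1, which forms inflammasomes, was at 5.65, 5.16 and 4.61 CPM and 12.3, 11.9 and 10.2 CPM. LAPTM5, a lysosomal membrane protein of haematopoietic cells, was at 5.48, 4.54 and 6.63 CPM and 15.8, 15 and 10.8 CPM. GMFG, an actin branch regulator of blood cells, and SH2D2A, a T cell adapter, reached no more than 13.9 CPM in any library. Among lymphocyte markers, CD3D and MS4A1 had 0 counts in all 6 libraries and CD3E at most 3, while CD8A was between 1.02 and 2.18 CPM, CD79A at no more than 0.759 CPM and CD4 at 8.35, 7.35 and 1.45 CPM in GFP and 1.19, 1.3 and 2.73 CPM in POU5F1B libraries. The part of other cells in these levels was not tested.

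The 7 transcription factors and chromatin proteins ranged from 1.749-fold to 3.81-fold. KLF2, a Krüppel-like factor known for quiescence and blood flow responses, was at 4.38, 2.97 and 2.1 CPM in GFP and 13.5, 12.5 and 9.99 CPM in POU5F1B libraries, with a log2 difference of 1.93 ± 0.29. SCML1, related to Polycomb group proteins and located on Xp, was at 72.1, 72.4 and 54.1 CPM and 131, 155 and 111 CPM and was among the 5 members with the highest CPM. ELF3, whose promoter is printed above, was at 10.3, 9.46 and 8.32 CPM and 23.5, 17.6 and 16.7 CPM. KLF2 and ELF3 were among the members highest in POU5F1B replicate 1 and lowest in POU5F1B replicate 3, an order that EBF3 also had. That order is not particular to them, since POU5F1B replicate 3 was the lowest of its group in 42 of the 67 members. PRDM16, a regulator of brown fat identity, EBF3, of the early B cell factor family, and PLAGL1, an imprinted zinc finger gene, were at no more than 17.8 CPM in any library.

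Proteins of the apical membrane, of vesicle traffic to it and of epithelial junctions made up a group of 7. MLPH, melanophilin, which links Rab27a on vesicles to myosin, was at 3.29, 3.6 and 2.42 CPM in GFP and 15, 14 and 8.71 CPM in POU5F1B libraries, and it had the third largest ratio of the list. MAL2, a raft protein needed for transcytosis to the apical surface, was at 25.9, 23.5 and 16.7 CPM and 137, 138 and 40.9 CPM. POU5F1B replicate 3 was 3.36-fold below the mean of replicates 1 and 2 for MAL2, the widest such gap among the 67 members. MALL, of the same MAL family, was at 13.5, 9.62 and 8.16 CPM and 27.3, 24.1 and 21.4 CPM, without such a gap. MUC1, the transmembrane mucin, was at 2.36, 1.96 and 2.42 CPM and 5.3, 4.55 and 5.21 CPM, and TSPAN1, a tetraspanin of epithelia, at 8.01, 8.05 and 8.48 CPM and 16.6, 15.5 and 13.7 CPM. ILDR1, a protein of tricellular junctions, was at 2.7, 2.42 and 2.26 CPM and 9.26, 4.27 and 4.35 CPM, so that POU5F1B replicate 1 was at least 2-fold above both other POU5F1B libraries. CLIC5, found in microvilli, was 1.95-fold higher by means.

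Of the channel, transport and metal-handling genes, LRRC55, an auxiliary subunit of calcium-activated potassium channels, was at 2.78, 2.27 and 4.04 CPM in GFP and 24.9, 26.7 and 8.54 CPM in POU5F1B libraries, and KCNS3, a silent subunit of voltage-gated potassium channels, was at 4.72, 4.22 and 1.94 CPM and 18.1, 19.7 and 7.09 CPM. Both were lowest by far in POU5F1B replicate 3, at 3.02-fold and 2.67-fold below the mean of replicates 1 and 2. ANO9, of the anoctamin family of channels and scramblases, was at 11.6, 14.4 and 13.6 CPM and 28.1, 22.1 and 23.3 CPM, with no such gap. SLC20A1, the sodium-phosphate cotransporter PiT-1, was at 206, 194 and 207 CPM and 404, 399.7 and 317 CPM, a log2 difference of 0.84 ± 0.14. STEAP3, a ferrireductase that lets iron leave endosomes, was at 20.3, 23.4 and 22.7 CPM and 39.7, 36 and 39.2 CPM. The metallothioneins are small cysteine-rich proteins that bind zinc and copper. MT1A was at 5.4, 4.54 and 3.15 CPM in GFP and 13.9, 12.3 and 10.8 CPM in POU5F1B libraries and MT1E at 6.07, 5.47 and 5.25 CPM and 17.7, 19.2 and 10.7 CPM, and reads of these close copies may be lost or exchanged when only uniquely mapped reads are counted. Of their relatives, looked up after the values of the members were seen, MT1X was at 1.35, 2.11 and 2.42 CPM and 2.61, 3.25 and 3.16 CPM, a ratio of 1.08, and MT1F at 0.843, 1.56 and 0.889 CPM and 2.85, 2.04 and 1.02 CPM, where the groups overlapped. MT1G, MT1H, MT1L and MT1M were at no more than 0.156 CPM and MT3 at no more than 1.28 CPM. MT2A was at 38.3, 42.8 and 39.3 CPM and 101, 79.2 and 61.1 CPM and missed the fold limit only in POU5F1B replicate 3. The zinc sensor MTF1, chosen in the same way, was at 26.3, 27.4 and 31 CPM and 31.3, 29 and 28.3 CPM, and its target SLC30A1 at 8.94, 7.82 and 17.8 CPM and 8.47, 8.36 and 10.6 CPM, where the groups overlapped.

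Metabolic enzymes included CBS, which makes cystathionine from homocysteine, at 19.1, 23.9 and 22.1 CPM in GFP and 46.2, 40.9 and 41.8 CPM in POU5F1B libraries. CDS1, which makes CDP-diacylglycerol for phosphoinositide synthesis, was at 2.78, 5.005 and 4.77 CPM and 16.6, 16.3 and 7.51 CPM, 2.19-fold lower in POU5F1B replicate 3 than in the mean of replicates 1 and 2. TLCD3A, a TLC domain protein, was at 28.8, 27.9 and 29.4 CPM and 50.6, 49.5 and 55 CPM. The retinaldehyde reductase DHRS3, the phospholipase PLB1 and the acyl-CoA thioesterase ACOT11 were between 2.07-fold and 2.40-fold higher by means.

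Genes of DNA replication, its chromatin and RNA processing numbered 3 and were between 1.59-fold and 1.92-fold higher by means. MCM6, a subunit of the replicative helicase, was at 227, 231 and 225 CPM in GFP and 352, 388 and 349.8 CPM in POU5F1B libraries. Its ratio of means was the smallest of the 67 members (1.59-fold), and its lowest POU5F1B CPM was the highest such value. The other helicase subunits, looked up after the values of the members were seen, fell short of the limit, with ratios of lowest POU5F1B to highest GFP CPM of 0.717 for MCM2, 1.01 for MCM3, 1.07 for MCM4, 0.831 for MCM5 and 0.817 for MCM7. CHAF1B, a subunit of chromatin assembly factor 1, was at 55.1, 55.8 and 53.9 CPM and 97.9, 102 and 83.8 CPM, whereas its partner subunit CHAF1A was at 82.6, 77.3 and 73.6 CPM and 76.7, 67.9 and 82.4 CPM, where the groups overlapped. REXO5, an RNA exonuclease, was at 11.4, 13.5 and 10.8 CPM and 21.7, 25.4 and 21.4 CPM. REXO5 overlaps ERI2 on the opposite strand, and CHAF1B overlaps MORC3 on the same strand.

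DUSP5, a nuclear phosphatase that inactivates ERK, was at 64, 59.98 and 59.6 CPM and 105, 99.6 and 96.6 CPM, and PHLDA3, a p53 target that restrains AKT, was at 29.8, 27.7 and 15.2 CPM and 72.8, 57.8 and 53.6 CPM. MAP6, which stabilises microtubules, was at 11.4, 8.76 and 2.75 CPM and 18.6, 19 and 27.2 CPM. For MAP6 GFP replicate 3 was more than 2-fold below both other GFP libraries and POU5F1B replicate 3 was the highest library of all.

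**Figure D2:**
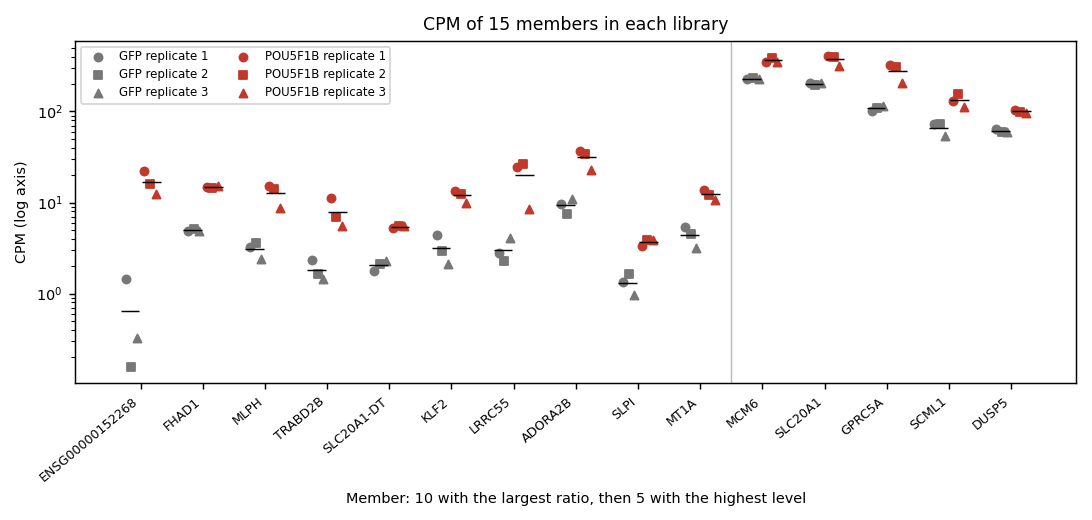
CPM on a log axis of the 10 members with the largest ratio of lowest POU5F1B to highest GFP CPM. To the right of the grey line are the 5 members with the highest CPM in their lowest POU5F1B library. Grey points are GFP and red points POU5F1B libraries, the marker shape gives the replicate number, and each short line is the mean of 3 libraries. The red triangles of LRRC55, ADORA2B and GPRC5A lie below the other red points.

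Less characterised members included the one with the largest ratio among members with a symbol. FHAD1, a forkhead-associated domain protein, was at 4.89, 5.08 and 4.85 CPM in GFP and 14.7, 14.5 and 15.4 CPM in POU5F1B libraries, a ratio of 2.85. The row ENSG00000152268 was at 1.43, 0.156 and 0.323 CPM and 22.4, 16.2 and 12.3 CPM, a ratio of 8.58. Its GFP values rest on 17, 2 and 4 counts, so its fold of means, 26.6, is poorly determined. The other row without a symbol, ENSG00000132130, was at 5.73, 4.85 and 3.8 CPM and 9.9, 10.2 and 8.71 CPM. SOWAHC and C2CD2 are named with their arms below, and DIPK2A, TTC22, LHFPL6, SUSD3, FAM174B, CCDC74A and PLEKHN1 ranged from 1.95-fold to 2.79-fold by means.

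The noncoding members need care in reading. SLC20A1-DT, a divergent transcript that starts 219 bases from SLC20A1 on the other strand, was at 1.77, 2.11 and 2.26 CPM in GFP and 5.22, 5.48 and 5.46 CPM in POU5F1B libraries, so both directions of that promoter region were on the list. The mitochondrial tRNA MT-TT was at 3.04, 3.68 and 1.62 CPM and 6.49, 5.76 and 6.4 CPM. It is 66 bases long and follows MT-CYB, which was at 6154, 5957 and 4590 CPM and 4530, 4476 and 3954 CPM, higher in every GFP library. NOC2LP1, a processed pseudogene, was at 2.61, 2.66 and 1.78 CPM and 5.3, 5.39 and 4.44 CPM, while its parent gene NOC2L was at 156, 169.9 and 225 CPM and 240.2, 213 and 255 CPM, and reads of such copies can be assigned to either. HS1BP3-IT1 lies within HS1BP3 on the same strand and was 2.42-fold higher by means, against 21.1, 27.8 and 20.6 CPM and 22.8, 24.8 and 29.3 CPM for HS1BP3, where the groups overlapped. SNHG26, a snoRNA host gene, was at 3.88, 4.61 and 2.02 CPM and 8.31, 7.34 and 9.82 CPM.

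Per kilobase of annotated exon, a scale on which genes can be compared, MCM6 had 55.1 and 87.9 mean CPM per kb in GFP and POU5F1B libraries, SLC20A1 36.9 and 68, DUSP5 24.1 and 39.6 and GPRC5A 14.1 and 36.2. MT1A, the shortest protein-coding member with 396 exon bases, had 11 and 31 on this scale, and NLRP1, the longest with 20157, had 0.255 and 0.57.

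Of 15 gene lists of pathways and cell types, 6 held no member and none held more than 3. In any list were 17 of the 67 members. The matching count over all rows is not given, so 17 is not read as few or many. Beside a member share of 0.589% over all 11379 rows, the share was 2 of 69 rows at 3 CPM or more for secreted growth factors and cytokines (WNT10A and WNT11), 2 of 75 for ion channels (ANO9 and KCNS3), 3 of 115 for receptor kinases and guidance receptors (EPHB6, IL4R and UNC5B), 2 of 83 for cell adhesion receptors (MUC1 and TSPAN1), 2 of 88 for G protein signalling (ADORA2B and GPRC5A) and 3 of 146 for transcription factors (KLF2 and ELF3 among them). It was 1 of 68 for the amino acid response (CBS), 1 of 136 for the cell cycle and DNA replication (MCM6) and 1 of 183 for the cytoskeleton and caveolae (MAP6). No member was among 93 rows of cholesterol and lipid metabolism, 70 of interferon and antigen presentation, 65 of extracellular matrix and its proteases, 58 of hypoxia and glycolysis, 28 of intestinal epithelial differentiation and 4 markers of fibroblast, endothelial and immune cells. Over all tested genes of these lists, the median log2 difference was between -0.32 for the fibroblast, endothelial and immune markers and 0.33 for interferon and antigen presentation, against -0.02 over 14286 tested genes.

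By position, 65 members could be placed on chromosome arms of GRCh37 (hg19), the build of the files. Of the 40 arms with at least 50 rows at 3 CPM or more, 12 held no member and 16 held 1. The largest share was on 21q, with 3 of 111 rows (2.70%, 95% Wilson interval 0.923% to 7.65%), followed by 2q with 10 of 447 (2.24%, 1.22% to 4.07%), 17p with 3 of 204 (1.47%), 1p with 9 of 687 (1.31%), 16q with 3 of 234 (1.28%) and 1q with 5 of 484 (1.03%). The intervals of 21q and 2q overlapped, and the order of the leading arms was not separable at these counts. These intervals cover counting error only, and neighbouring genes are not independent. When libraries were scaled by TMM or by DESeq2 size factors, 1 of the 3 members on 21q met the rule and 2q led, with 1.58% and 1.80%.

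The 3 members of 21q were CBS (chr21:44473301-44497053), C2CD2 (chr21:43305221-43374127), a C2 domain protein, and CHAF1B (chr21:37757690-37791313). C2CD2 was at 28.6, 31.1 and 34 CPM in GFP and 56.2, 52.5 and 51.2 CPM in POU5F1B libraries. All 3 were between 1.71-fold and 1.98-fold higher by means. The other 108 rows of 21q had a median log2 difference of 0.49, 0.43 and 0.25 in same-numbered libraries 1, 2 and 3, and 60.2% of them were higher in all 3, compared with 0.03, 0.00 and 0.14 and 23.1% for the rows of the whole genome that were not members. Most other rows of the arm thus lay in the direction of its members.

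On 2q, 8 of the 10 members lay between 110371941 (SOWAHC) and 136634013 (MCM6): SOWAHC, MALL, SLC20A1-DT, SLC20A1, STEAP3, NOC2LP1, CCDC74A and MCM6. SOWAHC, an ankyrin repeat protein, was at 29.3, 33.8 and 31.3 CPM in GFP and 75.3, 71 and 51.9 CPM in POU5F1B libraries. In the stretch from 10 Mb before to 30 Mb after the start of SLC20A1, bounded after the members were seen, 8 of 99 rows were members (8.08%), and on the rest of 2q 2 of 348 (0.575%), namely WNT10A and MLPH. The other 91 rows of the stretch had median log2 differences of 0.51, 0.50 and 0.16 in same-numbered libraries 1, 2 and 3, against 0.09, 0.10 and 0.03 for the other 346 rows of the rest of the arm. Over the stretch as a whole the differences were thus larger in replicates 1 and 2, but between 10 and 20 Mb after SLC20A1, where NOC2LP1 and CCDC74A lie, they were 0.48, 0.38 and 0.62. Within 1 Mb, the non-member rows around NOC2LP1 had a median log2 difference of 0.51 (8 of 8 higher), around CCDC74A 0.54 (5 of 5) and around STEAP3 0.35 (7 of 7). It was lower around SLC20A1, at 0.28 (13 of 17), SLC20A1-DT, at 0.27 (12 of 16), MALL, at 0.22 (7 of 9), SOWAHC, at 0.19 (7 of 10), and MCM6, at 0.14 (6 of 7). On 21q it was 0.50 around CBS (15 of 15), 0.53 around C2CD2 (11 of 12) and 0.49 around CHAF1B (10 of 12).

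Other arms gave other combinations. On 2p, which held PLB1, HS1BP3-IT1 and KCNS3, the other rows had medians of 0.41, 0.44 and 0.08, while 3 of 322 were members (0.932%). On 17p, with ADORA2B, NLRP1 and TLCD3A, the medians were 0.10, 0.05 and 0.32, largest in replicate 3. Over the 62 members with at least 3 other rows within 1 Mb, the median of the neighbours' medians was 0.14, and for 8 members it was above 0.30. The matching values around rows that are not members are not given, so these are not read as high or low. Members that lie close together, such as MT1A and MT1E, share neighbours and were counted separately. What part the position of a member has in its difference was not tested.

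**Figure D3:**
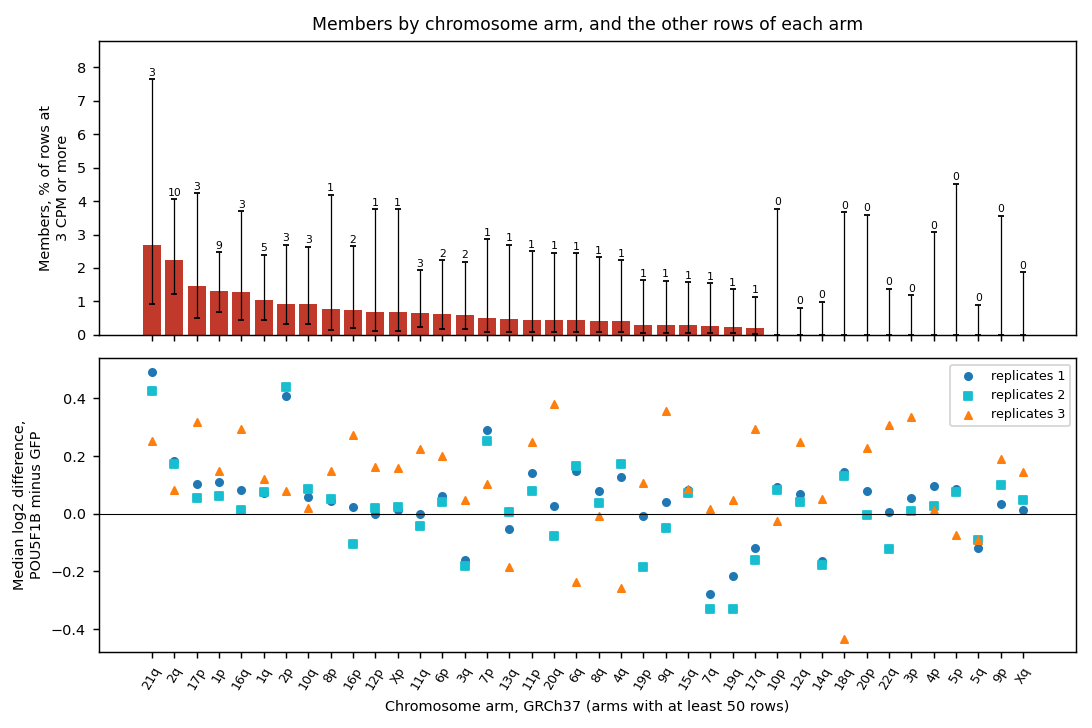
Top, the share of rows at 3 CPM or more that are members, in percent, on each of 40 arms with 95% Wilson intervals, with the number of members above each. Bottom, the median log2 difference (POU5F1B minus GFP) of the arm's other rows in same-numbered libraries 1, 2 and 3. 21q is leftmost with 2.70% and medians of 0.25 to 0.49, and replicates 3 often part from replicates 1 and 2, as on 2p.

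**Figure D4:**
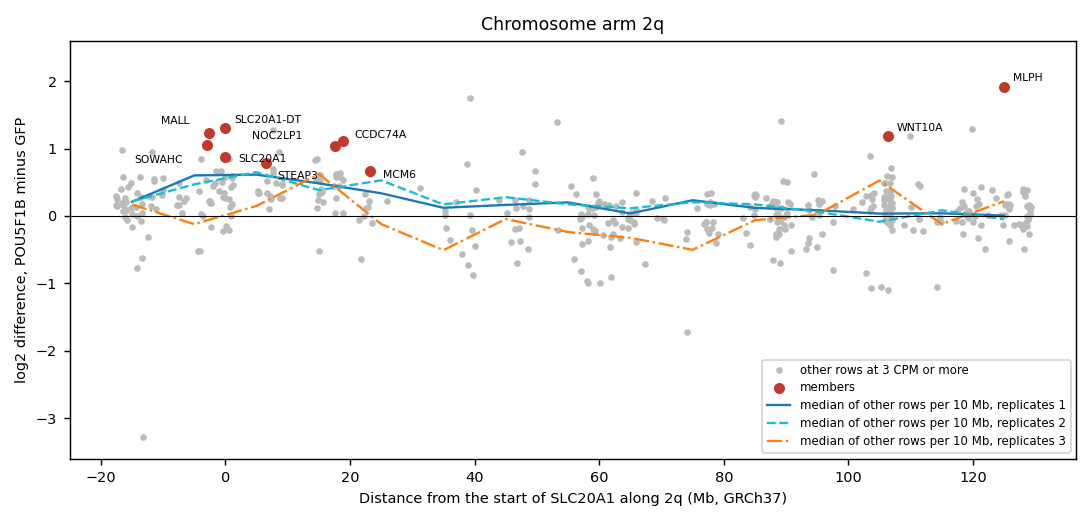
Rows of 2q by distance in Mb from the start of SLC20A1 (horizontal) and mean log2 difference (vertical), with members in red and named, and lines for the median of the other rows per 10 Mb in each same-numbered pair. 8 members sit between 10 Mb before and 30 Mb after SLC20A1, where the lines of replicates 1 and 2 reach 0.61 and 0.65 and that of replicate 3 runs between -0.12 and 0.62.

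Among the POU5F1B libraries, replicate 3 was the lowest in 42 of 67 members (62.7%) and in 36.8% of all 11379 rows. The median ratio of replicate 3 to the mean of replicates 1 and 2 was 0.846 in the members and 1.02 in all rows. Since the rule sets the lowest POU5F1B library against the highest GFP library, this order enters the choice of members. At least 2-fold below both other POU5F1B libraries in replicate 3 were 5 of the 67 members, namely MAL2, LRRC55, KCNS3, IL24 and CDS1 (7.46%), and 74 of all 11379 rows. Replicate 3 was also the library with less POU5F1B transcript, and whether these go together was not tested, since 1 library differs. The 6 members in which replicate 3 was furthest above the mean of replicates 1 and 2 were MAP6 (1.44-fold), HS1BP3-IT1 (1.4-fold), UNC5B (1.35-fold), SH2D2A (1.34-fold), WNT11 (1.33-fold) and SNHG26 (1.255-fold). GFP replicate 3 was the highest GFP library in 22.4% of the members and in 41.9% of all rows, and the lowest in 61.2% and 50.4%.

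**Figure D5:**
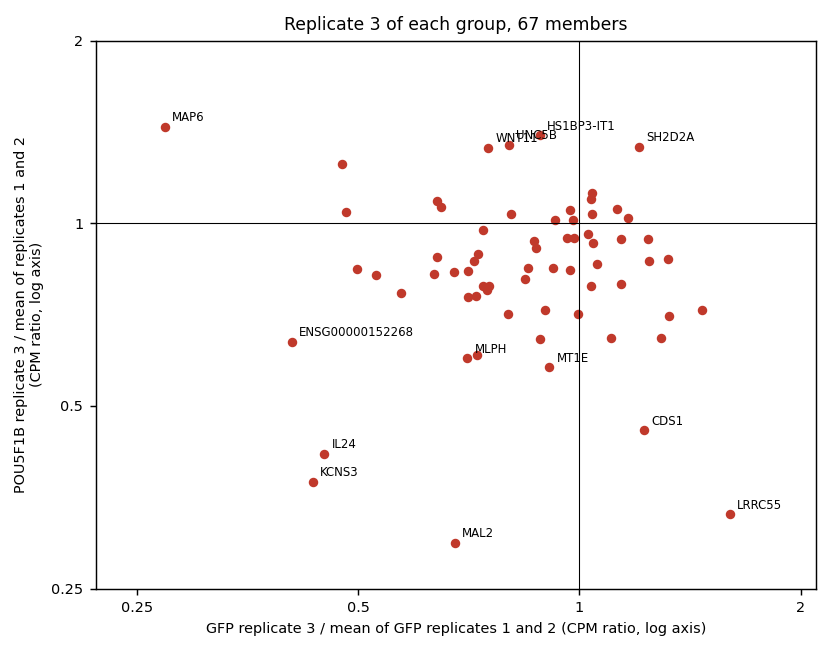
For each member, the CPM of GFP replicate 3 over the mean of GFP replicates 1 and 2 (horizontal) against the same ratio for POU5F1B (vertical), both on log axes. Most points lie below 1 on the vertical axis, with MAL2, LRRC55, KCNS3, IL24 and CDS1 lowest and MAP6 at the far left.

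Without GFP replicate 3 the rule was met by 296 rows, without POU5F1B replicate 3 by 292 and with replicates 1 and 2 only by 593. Leaving out a library can only loosen the rule, so these sets hold the members by construction. The voom test across 14286 genes called 0 of them higher at an adjusted p under 0.05 (0%), with 867 higher at an unadjusted p under 0.05 (6.07%), among them the 67 members, and the edgeR quasi-likelihood test called 0 (0%). The DESeq2 Wald test called 186 genes higher (1.3%), of which 60 were members. Voom with sample quality weights called 13.8% of genes higher and all 67 members, voom without GFP replicate 3 called 5.07% and 57 members, voom without POU5F1B replicate 3 called 0.014% and 1 member, and voom with replicates 1 and 2 only called 14.1% and 67 members. Since the members were chosen from this contrast, nothing is read from these counts beyond the spread that each fit allows. The members' voom log2 differences ranged from 0.63 to 5.11 with a median of 1.15, and their standard errors from 0.10 to 0.68.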

How the data were processed

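The authors deposited, per library, a table of whole-number read counts per gene without normalization. Per the study's methods, reads were mapped to hg19 with hisat2, and uniquely mapped reads were counted with featureCounts on an annotation that held genes and transposable elements; the strand setting and the annotation release are not given in the sources used here. Groups and replicate numbers were taken from the sample titles.

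The members, role groups and gene lists were chosen with earlier results of these data known. CPM was computed on library totals, and log2 CPM used 0.25 as an added value. Symbols and positions came from a GENCODE annotation on GRCh37 (87.4% of 63677 rows matched); arms were split at the centromere gaps of that genome. Genes named were the 10 members with the largest ratio, the 5 with the highest level, up to 4 per gene list with at least 2 members and per leading arm (3 arms), and those next to the limits; all other members named were chosen after their values were seen, because every member was to be accounted for. The values of 1 member are not reported here, though it stays in all counts of members. Of the gene list entries, 99.6% were found.

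Log2 differences with standard errors are from voom (limma 3.58.1, R 4.3.3) after filterByExpr and TMM of edgeR 4.0.16, with Benjamini-Hochberg adjustment over 14286 genes. This fit was first tested on simulated counts with known changes, drawn with the spread of replicates 1 and 2 alone. That spread leaves out the replicate 3 libraries, so the simulation does not show how the fit performs on all libraries. Alternatives were the edgeR quasi-likelihood test, DESeq2 1.42.0, other size factors, a filter of at least 1 count, sample quality weights, the replicate number as a block, replicates 1 and 2 only, other limits of the rule, and leaving out each library. Motifs were counted in the 250 bases before each RefSeq start site.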

Additional observations from a re-analysis of the deposited data

How the results depend on the processing

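Without 1 library the number of rows meeting the rule ranged from 78 to 296, and the share of rows on 21q that met it from 2.70% to 14.4%. In the same settings the members' median log2 difference ranged from 1.09 to 1.23. The number of members with an adjusted p under 0.05 ranged from 0 to 57. With replicates 1 and 2 only the rule was met by 593 rows, 20.7% of rows on 21q met it, and 67 members had an adjusted p under 0.05. The looser fold limit gave 243 rows and 11.7% on 21q, and a limit of 2 gave 9 rows and 0% on 21q. A CPM minimum of 1 gave 109 rows and a minimum of 10 gave 35. On TMM-scaled library sizes and with DESeq2 size factors the counts were 54 and 56, all of them members. The share of rows on 21q that met the rule was 0.901% in both. The number of members with an adjusted p under 0.05 was 60 with DESeq2 and 67 with sample quality weights.

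Same-numbered libraries of the 2 groups are tied by their number alone. The correlations of their deviations from the group means were 0.242, 0.088 and 0.165, and 4 of 6 libraries correlated best with their own number. With the replicate block, that is a ratio of 1.5 within each same-numbered pair, 206 rows met the rule, the 67 members among them by construction, and 7.21% of rows on 21q did. The replicate block in voom gave 0 members with an adjusted p under 0.05 and a median of 1.16. Of the log2 differences of the 35 members that the naming rule chose, whose sign the choice of members fixes, 325 values under the alternatives stayed on the same side of an adjusted p of 0.05 and 130 came under it. The share of members lowest in POU5F1B replicate 3 was between 56.0% and 71.4% under the other scalings, fold limits and CPM minimums, on the same 6 libraries. The cause of these shifts was not tested. At this depth 47.8% of the members had under 10 CPM in their lowest POU5F1B library, and their voom standard errors had a median of 0.24, as did those of all tested genes.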
